A study of Mus musculus with 3 samples.

Results

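The hair shaft keratin genes examined here were Krt31, Krt32, Krt33a, Krt33b, Krt34, Krt35 and Krt36 on chromosome 11 and Krt81, Krt82 and Krt86 on chromosome 15, 10 of the 21900 protein-coding genes in the RefSeq table of GRCm38.p6, the assembly also called mm10. They were chosen by name, and each was given every deposited peak that shared at least 1 bp with its span or the 10 kb on either side. The peaks came from ChIP-seq, which sequences the DNA pulled down together with a protein or histone mark by an antibody. From wild type mice of the BALB/c strain, suprabasal keratinocytes, which have left the basal layer to differentiate, gave 3 libraries: 1 with an antibody against DLX3, 1 with an antibody against H3K4me3 and 1 with IgG, a nonspecific immunoglobulin. The sample labels call the mice adult, whereas the series' text describes newborn skin. The IgG library was not analysed here.

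Hair shaft keratins are the filament proteins of the hardened hair fibre. Type I members are acidic, type II members are basic, and one of each pairs to build a filament. They are switched on in sequence as cells rise from the hair matrix into the cortex and cuticle, and interfollicular epidermis is not their usual site of expression. DLX3 is a homeodomain protein that acts in hair follicles, teeth and the upper epidermis, and hair formation depends on it. H3K4me3, trimethylated lysine 4 of histone H3, marks active gene starts.

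The DLX3 list held 18087 peaks with a median score of 83.35, and the H3K4me3 list held 16735 with a median of 823.67. The score is the authors' own value for each peak, higher for a stronger call, and was compared within a list only. Each antibody had 1 library, so no replicate spread and no test could be given, and the number of reads behind a peak is not known. A bulk list does not tell a site occupied in a few cells from one weakly occupied in many. Of the suprabasal markers, those of the labelled cells, H3K4me3 lay in or within 1 kb of the gene at 8 of 10 (Flg and Calm5 lacked it). H3K4me3 lay there at 7 of 7 markers of basal keratinocytes, which are not the labelled cells. It lay there at 7 of 8 inner root sheath genes (Krt72 lacked it) and at 4 of 4 hair matrix and cortex regulators. Melanocyte markers had it at 2 of 5 (Pmel and Dct), fibroblast markers at 4 of 6, and immune and endothelial markers at 0 of 5 and 0 of 3. Among the hair shaft keratins 2 of 10 had it by this measure, Krt35 and Krt86. By the same measure 64.0% of all 21900 coding genes had it, as did 3496 of the 7939 with a span of at most 10 kb. A marker list near or below these shares therefore does not show that the cells it names were present. The part of follicle or other cells in the results below was not tested.

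More of these genes had a DLX3 peak in reach than an H3K4me3 peak. A DLX3 peak fell in the window of 7 of 10 genes (Krt31, Krt32, Krt33a, Krt33b, Krt35, Krt81 and Krt82), while among all protein-coding genes the share was 45.9%. An H3K4me3 peak fell in the window of 4 of 10 (Krt32, Krt35, Krt36 and Krt86), where the share over all coding genes was 68.1%. Krt32 and Krt35 had both, against 43.9% of coding genes, and Krt34 alone had neither, against 29.9%. The 7 genes with DLX3 rested on 7 distinct DLX3 peaks and the 4 with H3K4me3 on 2 distinct H3K4me3 peaks. None of the 7 DLX3 peaks overlapped an H3K4me3 peak, whereas 7615 of all 18087 DLX3 peaks did (42.1%).

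Hair shaft keratin genes are short, with a median span of 5.62 kb against 17.15 kb for coding genes, so their windows are smaller. Among the 7939 coding genes with a span of at most 10 kb, 32.1% had a DLX3 peak in the window and 49.9% an H3K4me3 peak, 30.2% had both and 48.2% neither. DLX3 near such a short gene seldom came without H3K4me3: of the 3976 short genes with no H3K4me3 in the window, 150 had a DLX3 peak (3.77%), and 5.37% did once olfactory and vomeronasal receptor genes were left out. Of the 6 hair shaft keratin genes with no H3K4me3 in the window, 5 had a DLX3 peak, namely Krt31, Krt33a, Krt33b, Krt81 and Krt82, and Krt34 did not. These 5 genes rested on 5 distinct peaks, and neighbours share sites, so they are not independent of each other.

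The type I genes stood in 1 run on chromosome 11, in the order Krt33a, Krt33b, Krt34, Krt31, Krt32, Krt35 and Krt36 from the lower to the upper coordinate. From 10 kb below the first gene to 10 kb above the last, a stretch of 118.3 kb, the DLX3 list had 6 peaks and the H3K4me3 list had 1. That is 50.7 DLX3 peaks per Mb, beside 10.6 per Mb over the windows of all coding genes merged. For H3K4me3 the corresponding values were 8.5 per Mb, beside 12.1. The 2 densities are not fully alike, since the stretch also takes in bases, and 1 DLX3 peak, outside every listed gene's window.

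**Figure D1:**
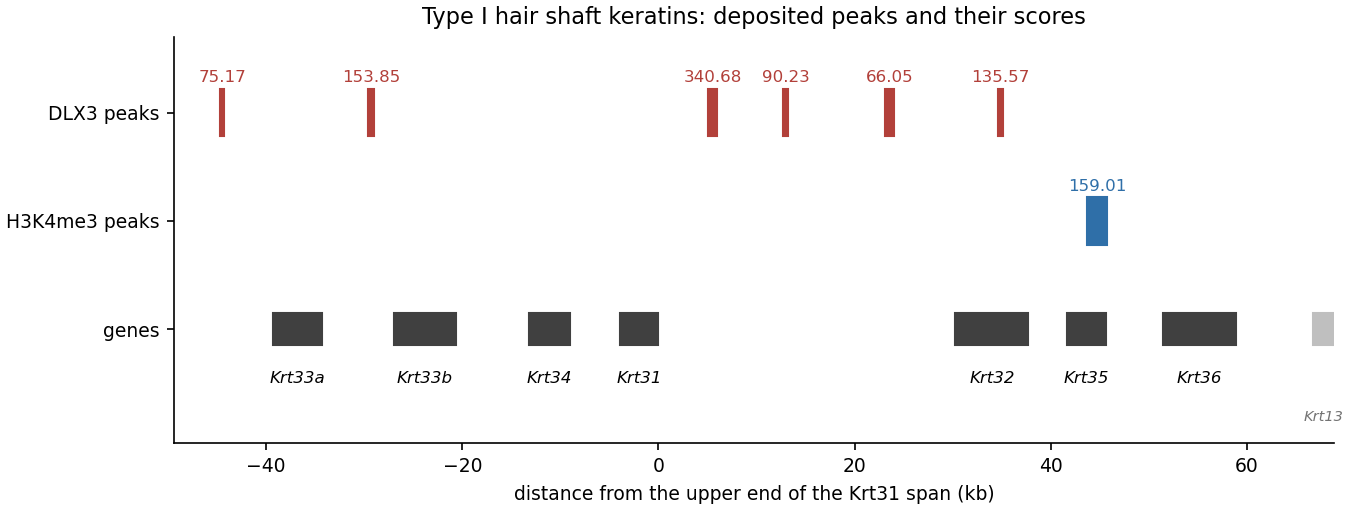
Map of the type I stretch on chromosome 11, with distance in kb from the upper end of the Krt31 span on the x axis. Red bars are DLX3 peaks and the blue bar is the H3K4me3 peak, to scale and each with its score, dark boxes are the listed genes and the grey box is the part of Krt13 in view; the highest DLX3 score, 340.68, stands beside Krt31 in the gap before Krt32, and no DLX3 peak touches the H3K4me3 peak at Krt35.

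Krt31, a keratin of the hair cortex (chromosome 11, 100046646 to 100050551, minus strand), had the strongest DLX3 peak of the group. It lay at 100055599 to 100056519, 921 bp wide, with a score of 340.68, and 98.4% of DLX3 peaks scored this or lower. Its centre was 5508 bp upstream of the start of Krt31, outside any gene. Of the 10472 DLX3 peaks without H3K4me3, 109 scored as high (1.04%), and their median was 76.83. The nearest H3K4me3 peak to the Krt31 span was 43672 bp away. The highest-scoring DLX3 peak of the group thus had no mark over it or over the gene it adjoins.

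Krt33a and Krt33b, a pair of closely related cortex keratin genes, shared 1 DLX3 peak. The shared peak (100020934 to 100021589, 656 bp, score 153.85) lay between both genes. Its centre was 5049 bp above the upper end of Krt33a (100011199 to 100016212) and 2373 bp beyond the 3′ end of Krt33b (100023634 to 100029868, minus strand). It stood at or above 84.1% of the list. Krt33a had a further DLX3 peak of its own on the other side (100005888 to 100006239, 352 bp, score 75.17), centred 5136 bp below the gene and under the list's median. Neither gene had H3K4me3 in reach, the nearest being 78011 bp from Krt33a and 64355 bp from Krt33b.

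Krt34, another type I hair keratin gene (100037347 to 100041554, minus strand), lies between Krt33b and Krt31 and had no peak of either kind in its window. Its nearest DLX3 peak was the one of score 340.68 beside Krt31, 14045 bp from its span, and its nearest H3K4me3 peak was 52669 bp away. Its lack of a DLX3 peak therefore depends on the window of 10 kb, since 20 kb takes in that of Krt31.

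Krt32, a keratin of the hair cuticle (100080848 to 100088269, minus strand), had 2 DLX3 peaks. The stronger (100085169 to 100085727, 559 bp, score 135.57) lay wholly inside the gene, 2821 bp downstream of its start, and stood at or above 78.8% of the list. The annotation used here gives spans only, so exon and intron were not told apart. The weaker (100073701 to 100074526, 826 bp, score 66.05) was centred 6735 bp beyond the 3′ end of Krt32, in the gap towards Krt31, and stood at or above 28.4% of the list. The stronger peak also fell in the window of Krt35, a keratin of the early cortex (100092192 to 100096224), centred 6744 bp below it, and was the only DLX3 peak Krt35 had. The DLX3 signal counted for Krt35 thus sits inside its neighbour.

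Krt35 was the only type I gene with H3K4me3 over its own span. That peak (100094223 to 100096318, 2096 bp, score 159.01) covered 2002 bp of Krt35 and ran past the upper end of the gene. It lay in the windows of 3 genes, Krt32, Krt35 and Krt36, but 5954 bp from the span of Krt32 and 5694 bp from that of Krt36. Krt36, a keratin of hair cortex, nail and tongue (100102012 to 100109487, minus strand), had no other peak; its nearest DLX3 peak was 16285 bp away. The Krt35 mark was weak for its list, since only 20.3% of H3K4me3 peaks scored this or lower. The DLX3 peak inside Krt32 lay 8496 bp from it, and the other 4 DLX3 peaks in type I windows lay farther.

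No peak covered the bases just before the start of the genes for which a promoter sequence was at hand. RefSeq promoters of GRCm38.p6 were given for 6 of the 10 genes (Krt31, Krt32, Krt33b, Krt34, Krt36 and Krt82). No DLX3 or H3K4me3 peak overlapped the 250 bases before the start of any of these. Krt35 and Krt86, the only listed genes with H3K4me3 over the span, had no promoter given, so their starts were not examined. Their H3K4me3 peaks were centred 954 bp (Krt35) and 528 bp (Krt86) from the upper end of the span. The stretches of 4 genes are shown because they place the gene beside the strongest DLX3 peak (Krt31), a gene with no peak (Krt34), a gene with DLX3 inside it (Krt32) and a type II gene (Krt82) next to each other. Each reads 5′ to 3′ on the minus strand and ends at the base before the start. Capitals mark, on either strand, TAATT, the homeodomain core, and TATAAA, the TATA box, and also CTTTGAAG and TTTTATGNG, which are letters that recur between these promoters. The letters are those of the reference strain and not of BALB/c.
Krt31, chr11:100050552-100050801: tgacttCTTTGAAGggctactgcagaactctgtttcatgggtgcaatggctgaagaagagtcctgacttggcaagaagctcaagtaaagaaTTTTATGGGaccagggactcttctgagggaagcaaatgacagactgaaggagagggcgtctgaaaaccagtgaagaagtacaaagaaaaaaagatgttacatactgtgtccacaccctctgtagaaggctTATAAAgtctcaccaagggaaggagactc
Krt34, chr11:100041555-100041804: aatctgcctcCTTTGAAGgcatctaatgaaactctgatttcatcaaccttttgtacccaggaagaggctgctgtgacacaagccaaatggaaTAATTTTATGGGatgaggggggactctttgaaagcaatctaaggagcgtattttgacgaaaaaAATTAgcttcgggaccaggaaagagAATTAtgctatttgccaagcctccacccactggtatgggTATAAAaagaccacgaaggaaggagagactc
Krt32, chr11:100088270-100088519: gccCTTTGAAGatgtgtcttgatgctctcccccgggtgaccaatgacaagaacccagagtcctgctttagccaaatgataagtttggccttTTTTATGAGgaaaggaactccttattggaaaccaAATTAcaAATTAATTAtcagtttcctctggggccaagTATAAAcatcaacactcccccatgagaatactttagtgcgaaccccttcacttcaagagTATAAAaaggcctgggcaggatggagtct
Krt82, chr15:101550660-101550909: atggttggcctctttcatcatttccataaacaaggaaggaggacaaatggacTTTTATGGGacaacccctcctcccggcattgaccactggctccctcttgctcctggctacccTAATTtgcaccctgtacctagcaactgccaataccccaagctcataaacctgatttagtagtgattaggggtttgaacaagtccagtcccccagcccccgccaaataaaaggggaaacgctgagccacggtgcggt

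TAATT was present in 3 of the 6 promoters (Krt32, Krt34 and Krt82) and in 25% of the 32851 promoters of the table over the same 250 bases. Krt31, beside the strongest DLX3 peak, had none. In Krt32 there were 4 matches, 3 of them overlapping, all between 125 and 110 bases before the start. TATAAA was present in 4 of 6 (Krt31, Krt32, Krt33b and Krt34), against 12.4% of promoters, and began 29 bases before the start in Krt31, 31 before it in Krt34 and 47 before it in Krt33b. Krt32 had 2 matches, which began 29 and 88 bases before its start. The longer homeodomain form TAATTG, which contains the core, had no match in the 6, against 7.17% of promoters. The AP-1 motif TGANTCA had none, against 6.75%. The Lef and Tcf motif CTTTGAT had none either, against 3.21%. A match in these letters shows no binding, and a missing one says only that the letters are not in this window.

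The 2 further strings were picked by reading these promoters, so their presence here is a description and supports nothing. CTTTGAAG was in Krt31, Krt32, Krt33b and Krt34 and in 1.42% of all promoters. TTTTATGNG was in those 4 and in Krt82, and in 0.843% of all promoters. The first letters of the 2 strings stood 85 bases apart in Krt31 and Krt34, 87 apart in Krt33b and 88 apart in Krt32. Of the 32851 promoters, 5 held both on the gene's own strand, and 4 of these were the type I hair keratins just named; the other was Gm31751. The matching genes are neighbours of 1 family, and the Krt36 promoter of the same run had neither string. The start given for Krt36 (100105626) lies inside its span, which ends at 100109487, whereas the other promoters adjoin the upper end of the span. The bases above the Krt36 span were therefore not searched.

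The type II genes lay on chromosome 15, in a stretch of 111.6 kb from 10 kb below Krt81 to 10 kb above Krt82. It had 2 DLX3 peaks (17.9 per Mb) and 1 H3K4me3 peak (9.0 per Mb), and each of the 3 listed genes had exactly 1 peak. DLX3 was in the window of 2 of 3 type II genes and 5 of 7 type I genes, beside 32.1% of coding genes with a span of at most 10 kb. H3K4me3 was in the window of 1 of 3 and 3 of 7, beside 49.9% of those short genes. These counts are too small to describe each type. The type II DLX3 scores were near the median of the list, and those of type I ran from 66.05 to 340.68.

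**Figure D2:**
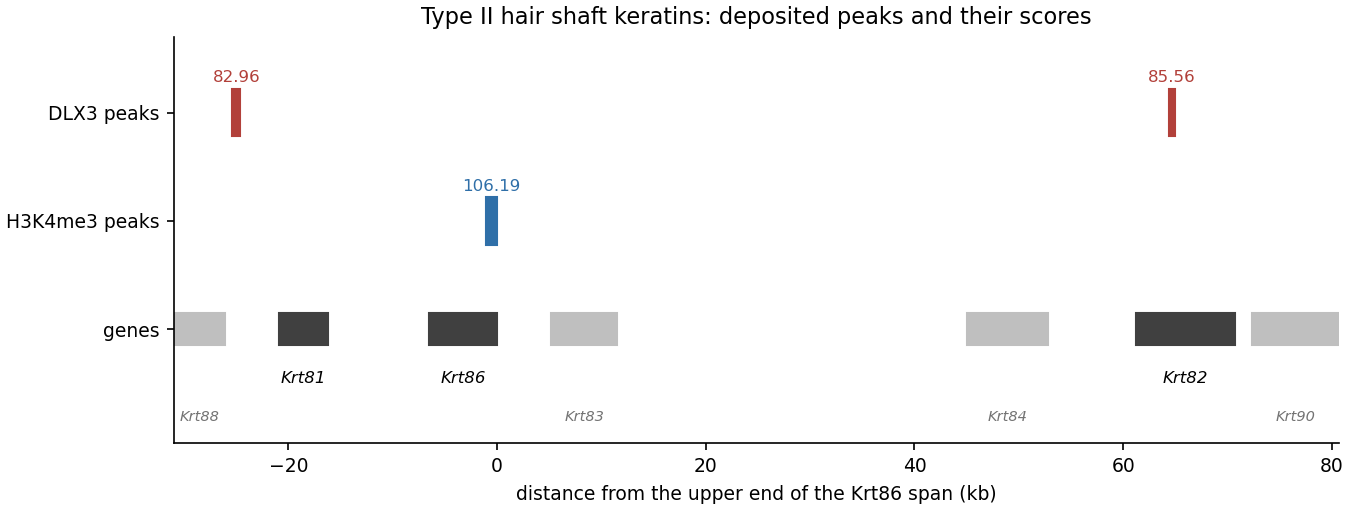
Map of the type II stretch on chromosome 15, with distance in kb from the upper end of the Krt86 span on the x axis. Red bars are DLX3 peaks and the blue bar is the H3K4me3 peak, to scale and each with its score, dark boxes are Krt81, Krt86 and Krt82 and grey boxes are other keratin genes; the H3K4me3 peak (106.19) lies in Krt86 and both DLX3 peaks (82.96 and 85.56) lie far from it.

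Krt81, a cortex keratin gene (chromosome 15, 101459061 to 101463765), had 1 DLX3 peak (101454603 to 101455389, 787 bp, score 82.96), at or above 49.7% of the list. Its centre was 4065 bp below the gene. The same peak lay in the window of Krt88, a neighbouring keratin gene whose span (101447724 to 101453925) is closer to it than that of Krt81, so the site cannot be given to Krt81 alone. The nearest H3K4me3 peak was 15176 bp from Krt81.

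Krt86, the next cortex keratin gene (101473478 to 101479983), had H3K4me3 and no DLX3 peak. The H3K4me3 peak (101478941 to 101479970, 1030 bp, score 106.19) lay wholly inside the gene with its centre 528 bp from the upper end. It also fell in the window of Krt83, the next gene up. Only 14.1% of H3K4me3 peaks scored this or lower, and its width was below the list's median of 2080 bp. The nearest DLX3 peak was 18089 bp away, the one beside Krt81.

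Krt82, a type II keratin of the hair cuticle (101541216 to 101550659, minus strand), had 1 DLX3 peak inside the gene (101544333 to 101544929, 597 bp, score 85.56), centred 6028 bp downstream of its start and at or above 52.3% of the list. The nearest H3K4me3 peak was 21998 bp away. The window of Krt90, the next keratin gene, held the same peak. Krt82 and Krt32 were the only listed genes with DLX3 inside the gene span, 2 of 10 (20%), beside 19.4% of coding genes with a span of at most 10 kb.

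**Figure D3:**
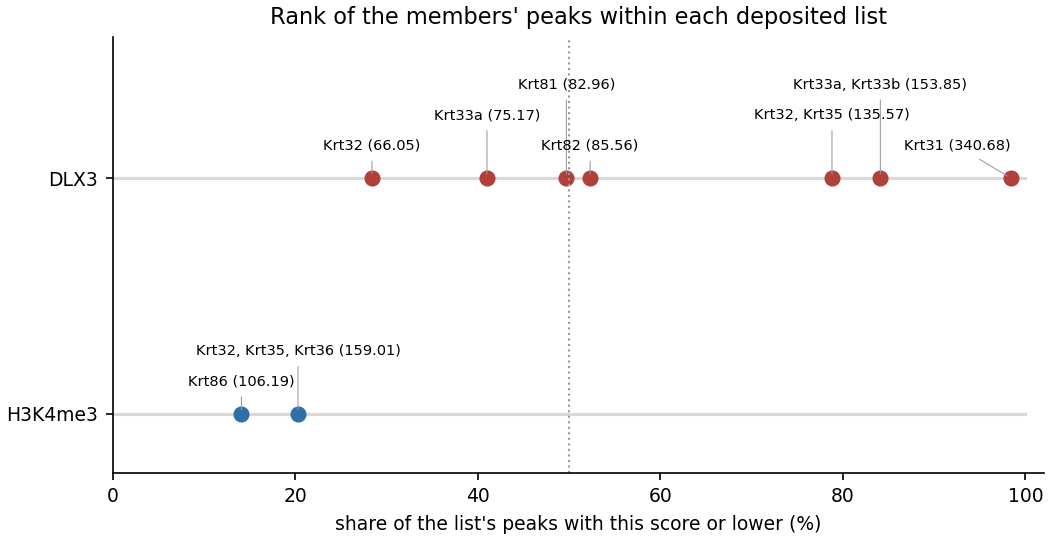
Rank of each distinct peak in the genes' windows within its own list, as the percentage of that list's peaks with the same or a lower score on the x axis; points are single peaks, labelled with the genes in reach and the deposited score, and the dotted line is the middle of the list. DLX3 points run from 28.4% to 98.4%, and both H3K4me3 points lie at or below 20.3%.

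Peaks shared between genes were 2 of the 7 DLX3 peaks, that of Krt33a with Krt33b and that of Krt32 with Krt35, and 1 of the 2 H3K4me3 peaks, that of Krt32, Krt35 and Krt36. The other 5 DLX3 peaks each fell to 1 listed gene. Outside the group, Krt90 and Krt88 were the only coding genes whose windows held one of these DLX3 peaks, 1 each. At the limit of the window, 1 DLX3 peak of the type I stretch was left out: it lay in the gap between Krt31 and Krt32 (100063277 to 100063782, 506 bp, score 90.23), 12726 bp from Krt31 and so 2726 bp too far. The included peak nearest the limit was that of score 135.57 for Krt35, 6465 bp from its span.

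The counts turned on how far from the gene a peak was looked for. With the span alone or with 1 kb on either side, 2 of 10 genes had a DLX3 peak (20%), Krt32 and Krt82, where 35.8% and 37.3% of all coding genes did, and 19.4% and 21.0% of coding genes with a span of at most 10 kb. With 5 kb it was 5 of 10, against 41.4% of all and 26.2% of short coding genes. With 20 kb it was 10 of 10, against 52.4% and 39.3%. For H3K4me3 the count stayed at 2 of 10 up to 5 kb, against 63.4% to 66.2% of all and 43.2% to 47.3% of short coding genes, and reached 5 of 10 at 20 kb, against 71.2% and 53.6%. Of the 7 distinct DLX3 peaks, 5 lay outside the listed genes, with their near edge 2045 to 6322 bp from the closest one, and none lay within 1 kb outside a listed gene.

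**Figure D4:**
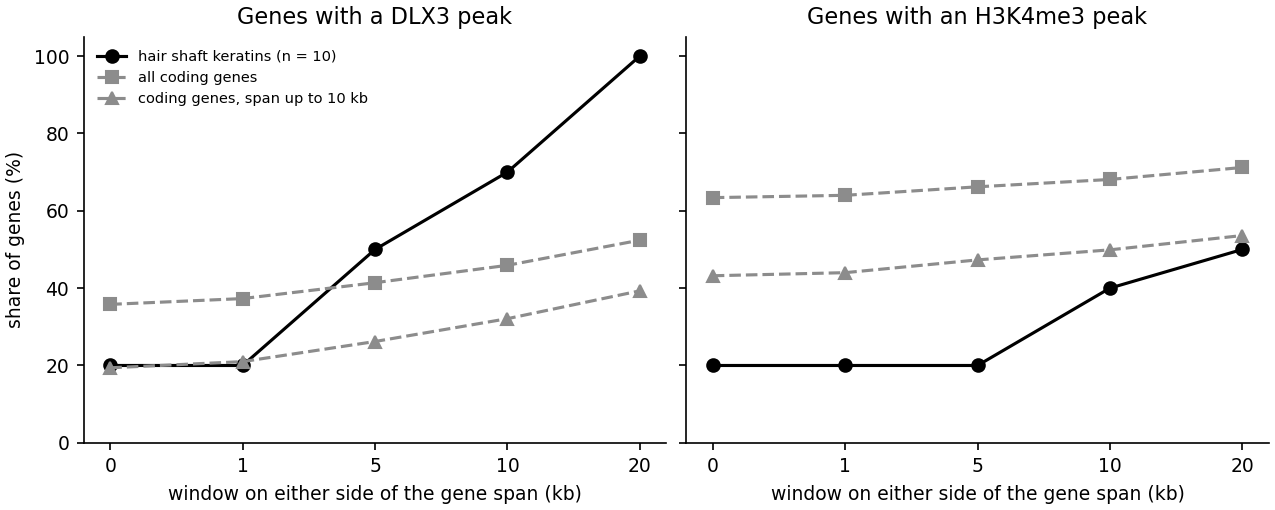
Share of genes in percent with a DLX3 peak (left) and an H3K4me3 peak (right) against the window on either side of the gene span in kb, at evenly spaced steps. Circles are the 10 hair shaft keratin genes, squares all 21900 coding genes and triangles the 7939 coding genes with a span of at most 10 kb; for DLX3 the hair keratins go from 20% with no window to 100% at 20 kb, and for H3K4me3 they stay below both other lines.

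Other genes of hair and epidermis are given for comparison, by counts in the same 10 kb windows. Krt85, a further hair keratin gene, and Krt74, of the inner root sheath, were not matched among the coding genes and are not counted. Of 7 further keratin genes of hair, nail and related epithelia, 4 had DLX3 and 3 had H3K4me3. Their highest DLX3 scores were at Krt42 (470.51, on a peak centred below Krt42 and nearer to Krt17), Krt39 (204.46, inside the gene, without H3K4me3) and Krt80 (196.58). Of the inner root sheath keratins, which build the sheath that moulds the shaft, 6 of 7 had DLX3 and 7 of 7 had H3K4me3, with Krt72 (228.63), Krt73 (156.7) and Krt28 (146.16) highest. Epidermal and companion layer keratins had DLX3 at 8 of 13 and H3K4me3 at 11 of 13, led by Krt16 and Krt17, which share the peak of 470.51 with Krt42, and by Krt5 (105.22). Each of these keratin groups, the hair shaft keratins included, had DLX3 at over 50% of its genes. Among all coding genes the share was 45.9%, and among those with a span of at most 10 kb 32.1%. H3K4me3 was at under 50% only in the hair shaft keratins and in the 7 further genes, beside 68.1% of all and 49.9% of short coding genes. These differences were not tested.

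Keratin-associated proteins cross-link the shaft keratins into a matrix. Of their 56 genes, 7 had a DLX3 peak (12.5%), on 5 distinct peaks, and 0 had H3K4me3. Among all coding genes, 45.9% had DLX3 and 68.1% had H3K4me3. Among short coding genes without H3K4me3 in the window, 3.77% had DLX3, or 5.37% with olfactory and vomeronasal receptor genes left out. The highest DLX3 scores at keratin-associated protein genes were 76.77, on a peak shared by Krtap2-4 and Krtap4-1, and 76.55 at Krtap19-1. The genes listed as hair shaft regulators had both peaks at 16 of 16, on 44 distinct DLX3 peaks. The list is broad and holds Gata3, also counted among the inner root sheath markers above. Highest in DLX3 score were Ctnnb1 (397.21), the β-catenin gene, and Dlx4 (265.43), a homeobox gene next to Dlx3. Hoxc13 (249.08), a known activator of hair keratin genes, came next. Other structural and processing genes of the shaft had DLX3 at 11 of 14 and H3K4me3 at 10 of 14, led by Padi3 (288.63) and Padi4 (265.34), which encode peptidylarginine deiminases, and S100a3 (248.07), a calcium-binding protein gene of the cuticle.

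**Figure D5:**
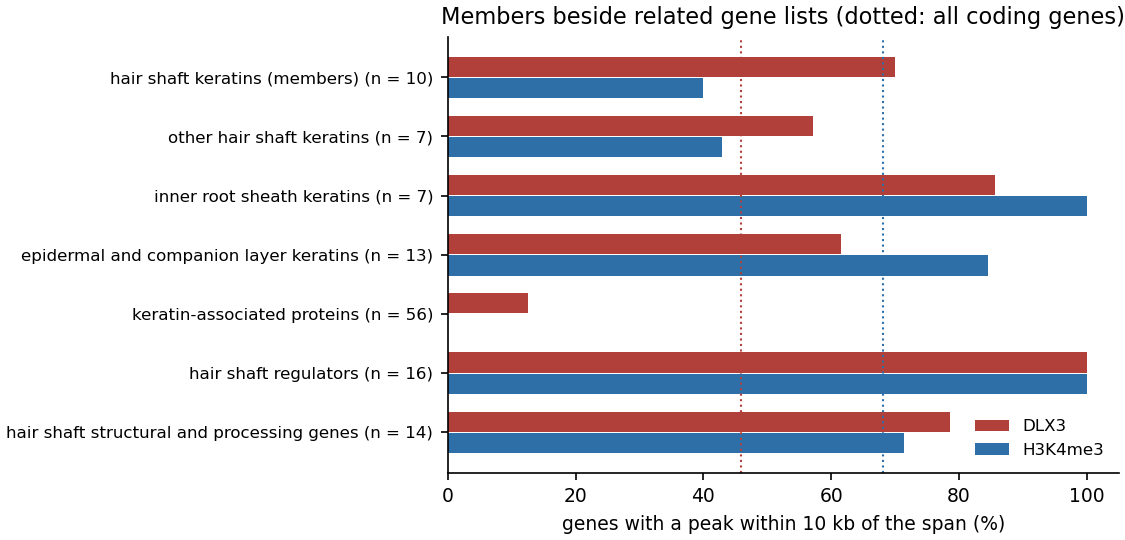
Percentage of genes with a DLX3 peak (red) and an H3K4me3 peak (blue) within 10 kb of the span, on the x axis, for the hair shaft keratins and 6 related lists, with the number of genes beside each name. Dotted lines give the share over all coding genes, 45.9% for DLX3 and 68.1% for H3K4me3; the hair shaft keratins lie above the red line and below the blue one, and the regulators reach 100% for both.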

How the data were processed

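Suprabasal keratinocytes gave 1 ChIP-seq library each for DLX3, H3K4me3 and IgG. Bowtie 1.1.2, MACS 1.4.2, HOMER and build mm10 are named, per the submitters' processing notes, without settings or roles. The placement of reads that match several keratin copies was not stated. For DLX3 and for H3K4me3 the authors deposited 1 peak list each, with positions and a score per peak, and the IgG library was not analysed here; the score looks like that of MACS, though no header states it. Other values were coordinates in bp, shown here counting from 1. Depth is unknown. Genes, spans and promoters came from RefSeq tables of GRCm38.p6, and no genome sequence was used, so the bases under the peaks were not read. Overlaps were computed with Python 3.11.15, pandas 2.3.3 and numpy 2.4.6, and the interval search was tested on simulated data. All 10 genes were named, with the top 3 genes by DLX3 score of each related list and up to 5 coding neighbours sharing a DLX3 peak. The genes, lists and comparisons were chosen with earlier results of these data known, and the short-gene shares, CTTTGAAG and TTTTATGNG after the values or sequences were seen. Alternatives covered the window, the overlap and the score.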

Additional observations from a re-analysis of the deposited data

How the results depend on the processing

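Of 44 alternative values, 22 stayed within 1.5 times the reported count. With the span alone, and likewise with 1 kb on either side, 2 genes had DLX3, on 2 distinct peaks, 2 had H3K4me3 and 0 had both. With 5 kb, 2 genes had H3K4me3 and 0 had both, and with 20 kb 5 had both. Giving each peak to the nearest coding gene left 5 genes with DLX3, on 6 distinct peaks, 2 with H3K4me3 and 0 with both. Krt35 and Krt81 then had no DLX3 peak. Among peaks at or above the median score, there were 4 distinct DLX3 peaks and 0 of H3K4me3, so 0 genes had H3K4me3 and 0 both. In the top 20% of each list, 3 genes had DLX3, on 2 distinct peaks, 0 had H3K4me3, on 0 distinct peaks, and 0 had both. For the score cuts, the nearest-gene rule and genes with both at other windows, no share of all coding genes is given. Those counts therefore cannot be called low or high. The count of 0 DLX3 peaks overlapping H3K4me3 could not change in the 4 alternatives run for it. Each was stricter than the main rule of 1 bp, or kept fewer peaks. These 4 are counted among the 22 and say nothing on how stable the 0 is. No paired analysis was possible because each antibody had 1 library. Read depth is unknown, and a site too weak to be listed by the authors is not counted.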

Other observations

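The gap between Krt31 and Krt32 (chromosome 11, 100050552 to 100080847, 30.3 kb) held 3 DLX3 peaks and no annotated gene of any kind. Their scores were 340.68, 90.23 and 66.05, and the peaks were separated by 6757 and 9918 bp. Among 3140 gaps of 20 to 40 kb between neighbouring coding genes, 461 held at least 1 whole DLX3 peak (14.7%) and 50 held 3 or more (1.59%). The gap was singled out after its peaks were seen, so these shares describe it and test nothing. No H3K4me3 peak lay in it.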
